A study of Mus musculus with 16 samples.

Results

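Calcium that enters a neuron during firing leaves it across the plasma membrane by 3 gene families: the potassium-dependent sodium-calcium exchangers (Slc24a2, Slc24a3 and Slc24a4), the sodium-calcium exchangers that need no potassium (Slc8a1, Slc8a2 and Slc8a3), and the plasma membrane calcium pumps (Atp2b1, Atp2b2, Atp2b3 and Atp2b4). These 10 genes were followed in mouse mitral cells, a neuron of the olfactory bulb. They were found as all probes whose RefSeq accession in the scanner files carried one of the 10 symbols, which gave 18 probes, out of 20124 named genes with 26546 probes on the array. The family was chosen with measured values in view: Slc24a2 had passed the threshold when Kir2.1 cells were compared with control cells at P6. For the members, that comparison is therefore given as a description with no test.

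The exchangers move calcium out against its gradient by letting sodium in, and the Slc24 proteins also carry potassium out. They have high capacity and clear large loads, whereas the pumps spend ATP, bind calcium more tightly and hold the resting level low. Mitral cells are glutamatergic neurons that carry the output of the bulb and in the first postnatal week refine their dendrites to a single glomerulus. Kir2.1 is an inwardly rectifying potassium channel whose overexpression makes neurons harder to excite. The Kir2.1 comparison asks which transcripts differ in mitral cells given this channel. The electrical activity of these cells was not measured in the data used here.

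All cells came from ICR mice electroporated in utero at E12, and all carried EYFP from a pCAG plasmid. Control cells carried pCAG-EYFP alone, and Kir2.1 cells carried pCAG-EYFP with pCAG-Kir2.1, both under the ubiquitous CAG promoter. Cells were picked by hand at P3 (postnatal day 3) or P6, their cDNA was amplified by 30 cycles of PCR, and those positive for EYFP and pcdh21 were kept. Each 1-colour array held the pooled cDNA of 10 cells, with 4 arrays in each of the 4 groups and so 40 cells per group. The labels do not say how many animals the pools came from, and p-values therefore speak only of the variation among pools, which may be technical. Each value is a log2 signal minus that of the array's 75th percentile, taken over the probes well above background on all arrays. A value of 0 is the 75th percentile, and a difference of 1 is a doubling. A probe's level cannot be set against another probe's, so each gene is followed only across groups.

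The share of probes well above background ran from 34.3% to 41.1% over the arrays. Cdhr1, the current name of pcdh21, was well above background on all 16 arrays, at 2.25 to 3.94, and 7 to 9 of 10 mitral and tufted cell markers were detected on each array. The probe for Kcnj2, the mouse gene of Kir2.1, was above background on 0 of the 16 arrays, and it is unknown whether it can detect the plasmid's transcript, so the labels could not be checked with it. All P3 arrays lay on slide 1 and all P6 arrays on slide 2, so slide and age cannot be told apart. Within a slide, control pools filled row 1 and Kir2.1 pools row 2, so treatment and row cannot be told apart. In pooled cells, fewer cells with a transcript and less of it per cell cannot be told apart. A gene was tested with limma where a probe was well above background on at least 4 arrays, which held for 8 of the 10 members and for 21085 features in all. Its brightest such probe stood for it. A feature counts as called when its Benjamini-Hochberg adjusted p over all features is under 0.05.

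**Figure D1:**
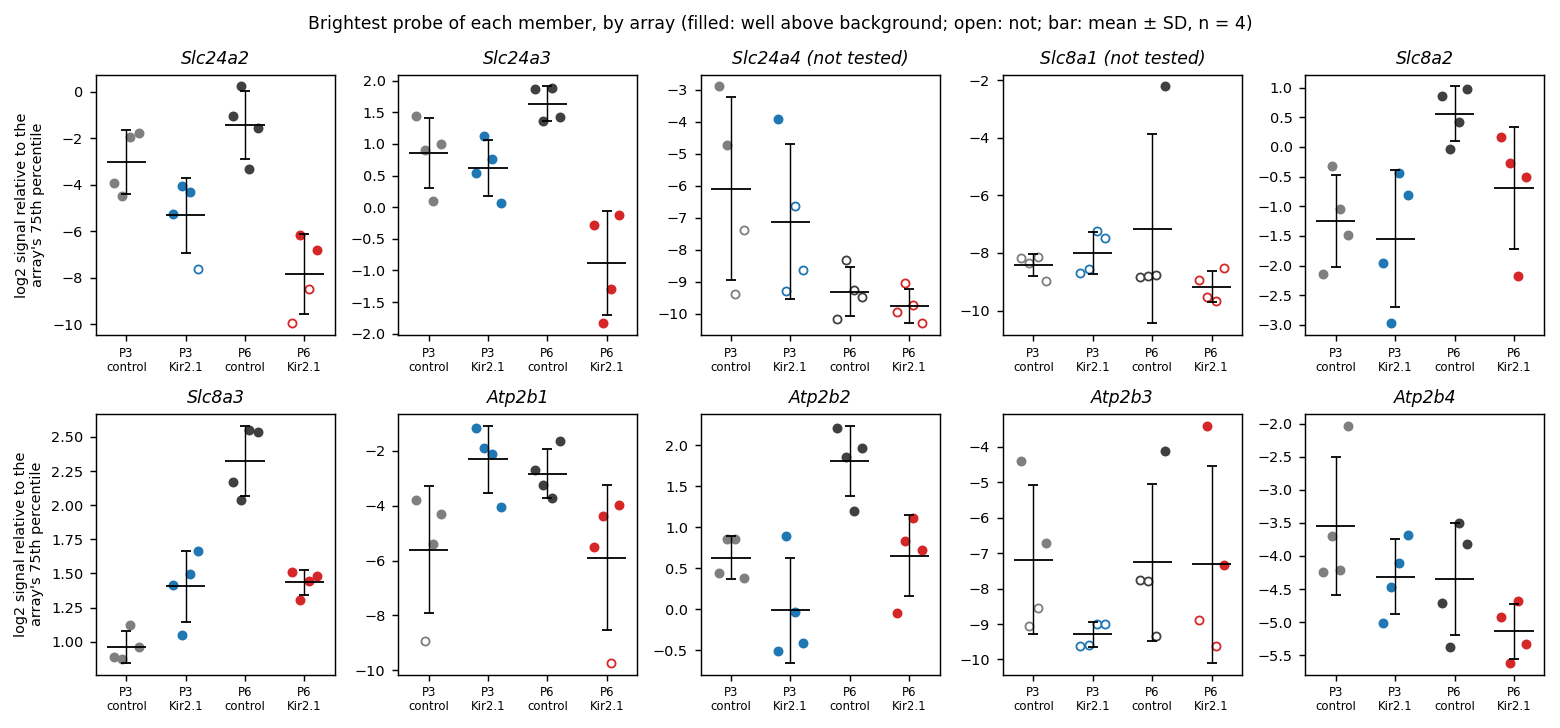
Log2 signal of the brightest probe of each of the 10 members (y axis, relative to the array's 75th percentile) in the 4 groups (x axis), 1 point per array. Filled points are well above background, open points are not, and bars give the mean ± SD of 4 arrays. In P6 Kir2.1 cells, Slc24a2 and Slc24a3 lay below every P6 control array, and Slc8a3 in P6 control cells lay above every other array.

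Slc24a2 encodes the neuronal exchanger NCKX2. On probe A_51_P317542, the P3 control pools 1 to 4 read -3.95, -4.48, -1.93 and -1.79. The P3 Kir2.1 pools read -5.28, -4.08, -4.33 and -7.61, the last of which was not well above background. The lowest control pool lay within the range of the Kir2.1 pools, so the groups overlapped at P3. At P6 the control pools read -1.05, 0.23, -3.33 and -1.58. The P6 Kir2.1 pools read -9.97, -6.15, -8.49 and -6.82, with 2 of the 4 well above background. Every P6 Kir2.1 pool was lower than every P6 control pool, with no overlap.

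At P3, the Slc24a2 difference between Kir2.1 and control cells was -2.29 (SE 1.04, 95% interval -4.52 to -0.05), which did not pass (limma, adjusted p = 0.751). At P6 the means were -1.43 ± 1.48 in control and -7.86 ± 1.72 in Kir2.1 cells (SD, n = 4), a difference of -6.42 (SE 1.04). This is the value for which the family was taken up. With normexp background correction in place of the scanner's own, it was -3.40, with 2 of the 4 Kir2.1 pools not well above background. Between ages, Slc24a2 differed by 1.60 in control cells and by -2.53 in Kir2.1 cells, both given without a test because they use the same P6 arrays. The first was 0.58 without P6 control pools 1 and 2, and the second was -0.81 with normexp correction. Its other 2 probes were well above background on 0 and on 1 of the 16 arrays and so give no second reading.

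The starts of the Slc24a2 and Slc8a3 transcripts are shown because these are the members with the widest P6 difference and with the called rise with age, and the only members with the searched motif. The motif was TGACG, the core of the cAMP response element bound by CREB, a factor switched on by calcium and electrical activity. It was sought on both strands of the 250 bases before each annotated start (RefSeq, GRCm38.p6). Capitals mark it, written CGTCA where it lies on the reverse strand, and each sequence runs 5′ to 3′ along the gene.
Slc24a2, reverse strand, chr4:87227964-87228213: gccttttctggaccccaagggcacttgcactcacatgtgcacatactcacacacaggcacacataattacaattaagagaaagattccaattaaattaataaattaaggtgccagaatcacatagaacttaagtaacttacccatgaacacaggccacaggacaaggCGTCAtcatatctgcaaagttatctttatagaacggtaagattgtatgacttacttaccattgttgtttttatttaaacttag
Slc24a2, reverse strand, chr4:87230541-87230790: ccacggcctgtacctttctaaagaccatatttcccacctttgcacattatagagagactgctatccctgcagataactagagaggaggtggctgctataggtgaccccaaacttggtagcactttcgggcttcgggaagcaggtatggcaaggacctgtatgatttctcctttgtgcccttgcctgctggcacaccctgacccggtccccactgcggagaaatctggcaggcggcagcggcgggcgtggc
Slc8a3, reverse strand, chr12:81333181-81333430: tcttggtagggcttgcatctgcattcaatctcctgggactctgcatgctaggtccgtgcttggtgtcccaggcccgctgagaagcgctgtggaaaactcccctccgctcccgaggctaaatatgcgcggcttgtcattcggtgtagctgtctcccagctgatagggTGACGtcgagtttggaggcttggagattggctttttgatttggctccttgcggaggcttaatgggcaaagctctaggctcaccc

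RefSeq windows were found for 9 of the 10 members, all but Atp2b3, with 14 windows in all. TGACG was in 2 of these 14 windows, against 17.8% of all 32851 windows of this length. In the first Slc24a2 window shown it lay 83 bases before the start, and in Slc8a3 84 bases before it. The other Slc24a2 window, which lies upstream, held no match. The complete element TGACGTCA, which contains TGACG, was in 0 of the 14 windows and in 1.55% of all windows. A match is a description of letters and was not tied to any value here.

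Slc24a3 encodes NCKX3, a broadly expressed exchanger of the same family, and its single probe was well above background on all 16 arrays. The P3 control pools read 1.44, 0.90, 0.10 and 1.00, and the P3 Kir2.1 pools read 0.54, 1.12, 0.76 and 0.06. Among P6 control pools the values were 1.86, 1.37, 1.88 and 1.42. In P6 Kir2.1 pools they were -0.28, -1.84, -1.29 and -0.12. The P3 groups overlapped almost fully, whereas all P6 Kir2.1 pools lay below every other pool of the 16.

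At P3 the Slc24a3 difference between Kir2.1 and control cells was -0.24 (SE 0.40, limma adjusted p = 0.962), with a 95% interval from -1.10 to 0.63. At P6 it was -2.52 (SE 0.40), from 1.63 ± 0.28 in control to -0.88 ± 0.82 in Kir2.1 cells (SD, n = 4). Between P3 and P6 it differed by 0.77 in control cells (adjusted p = 0.338) and by -1.50 in Kir2.1 cells (SE 0.40, adjusted p = 0.105). The P6 Kir2.1 pools did not overlap the P3 Kir2.1 pools, but the difference did not pass.

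Slc24a4 encodes NCKX4, the exchanger that ends the odour response in olfactory sensory neurons. Its probe was well above background on 3 arrays, all at P3: control pools 1 and 2 at -2.90 and -4.74, and Kir2.1 pool 1 at -3.91. At P6 it was above background on 0 of 8 arrays. It was not tested.

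Slc8a3 encodes NCX3, an exchanger of brain and skeletal muscle. On its brighter probe the P3 control pools read 0.88, 0.87, 1.12 and 0.96, and the P3 Kir2.1 pools read 1.42, 1.05, 1.50 and 1.67. At P6 the control pools gave 2.17, 2.04, 2.55 and 2.54. The Kir2.1 pools gave 1.51, 1.30, 1.45 and 1.48. P6 control pools stood above the other 12 arrays, and the P6 Kir2.1 pools lay within the range of the P3 Kir2.1 pools.

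Slc8a3 rose between P3 and P6 in control cells by 1.36 (SE 0.20, 95% interval 0.92 to 1.80), or 2.57-fold (limma, adjusted p = 0.00382). The call held when any of the 16 arrays was left out, with an adjusted p of at most 0.0186, and ended when only these 8 arrays were fitted (adjusted p = 0.0528). In Kir2.1 cells the difference between ages was 0.03 (SE 0.20, interval -0.41 to 0.47, adjusted p = 0.964). Whether the age differences of the Kir2.1 and control cells differ was not tested, since that contrast contains the P6 comparison. At P3, Kir2.1 cells stood 0.44 above control cells (SE 0.20, adjusted p = 0.758). At P6 they stood below them, by a difference of -0.89 (SE 0.20), at 1.44 ± 0.09 against 2.32 ± 0.26 (SD, n = 4).

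A second Slc8a3 probe gave another picture. It was far dimmer and well above background on 12 arrays, and its values over the 16 arrays had r = -0.221 with those of the brighter probe, given as a description. Its P6 minus P3 difference in control cells was -0.73 (SE 0.59, adjusted p = 0.573), and the mean of both probes differed by 0.32 (adjusted p = 0.664). The age call of Slc8a3 thus rests on its brighter probe. At P6 the dimmer probe was also lower in Kir2.1 than in control cells, by a difference of -0.95 (SE 0.59). The groups narrowly did not overlap, with the highest Kir2.1 pool at -7.19 and the lowest control pool at -7.10. Only 2 of the 4 Kir2.1 pools were well above background.

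Slc8a2 encodes NCX2, the exchanger most restricted to neurons, and its probe was above background on all 16 arrays. The P3 control pools read between -2.14 and -0.31 and the P3 Kir2.1 pools between -2.97 and -0.45. At P6 control pools ran from -0.04 to 0.98 and the P6 Kir2.1 pools from -2.18 to 0.18. Of the 4 comparisons, the groups did not overlap in 1, the P3 against the P6 control pools. The difference between ages in control cells was 1.81 (SE 0.61, interval 0.49 to 3.12), which did not pass (limma, adjusted p = 0.137), and in Kir2.1 cells it was 0.85 (adjusted p = 0.561). Kir2.1 differed from control by -0.30 at P3 (adjusted p = 0.971) and by -1.25 at P6.

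Slc8a1 encodes NCX1, the exchanger best known from the heart. One of its 2 probes was above background on 1 array, P6 control pool 4, at -2.21 against -8.77 for the next highest pool of that group. The other probe was above background on 0 arrays, and Slc8a1 was not tested.

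Atp2b2 encodes PMCA2, a fast pump of neurons and hair cells. Its brighter probe read 0.44, 0.85, 0.85 and 0.38 in the P3 control pools and -0.51, 0.90, -0.03 and -0.41 in the P3 Kir2.1 pools. At P6 the readings were 2.21, 1.86, 1.20 and 1.97 in control pools, and the P6 Kir2.1 pools read -0.05, 0.83, 1.12 and 0.72. The P6 control pools lay above every other pool. Both probes were above background on all 16 arrays and moved together across them (r = 0.852).

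Between P3 and P6 in control cells, the brighter Atp2b2 probe differed by 1.18 (SE 0.35, limma adjusted p = 0.095) and the dimmer one by 1.98 (SE 0.41). When each probe was tested as its own feature the dimmer one passed (adjusted p = 0.0255), as did the mean of both, which rose by 1.58 (adjusted p = 0.0322). In Kir2.1 cells the differences between ages were 0.67 (adjusted p = 0.40) and 0.53 (adjusted p = 0.61). At P3, Kir2.1 minus control was -0.64 (SE 0.35, adjusted p = 0.824) and -0.16 on the 2 probes. At P6 it was -1.16 (SE 0.35) and -1.61 (SE 0.41), without overlap on either probe.

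Atp2b1 encodes PMCA1, the pump found in nearly all cells. Its brighter probe read -3.78, -8.92, -5.41 and -4.30 in the P3 control pools and -1.18, -1.92, -2.11 and -4.06 in the P3 Kir2.1 pools. The P6 control pools read -2.70, -3.26, -3.73 and -1.64, and the P6 Kir2.1 pools read -5.51, -4.37, -9.72 and -3.97. In each of the P3 control and P6 Kir2.1 groups, 1 pool was not well above background and the spread was wide. At P3, Kir2.1 stood 3.29 above control (SE 1.28, interval 0.54 to 6.03), which did not pass (limma, adjusted p = 0.648). At P6 the difference was -3.06 (SE 1.28), without overlap. Normexp correction gave 1.69 at P3 and -1.49 at P6.

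The second Atp2b1 probe gave smaller differences, of 0.38 at P3 (SE 1.25, adjusted p = 0.984) and -1.08 at P6, with overlapping groups at both ages. Between ages the brighter probe differed by 2.77 in control cells (SE 1.28, adjusted p = 0.274) and by -3.58 in Kir2.1 cells (adjusted p = 0.205), against 0.09 and -1.37 on the second probe.

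**Figure D2:**
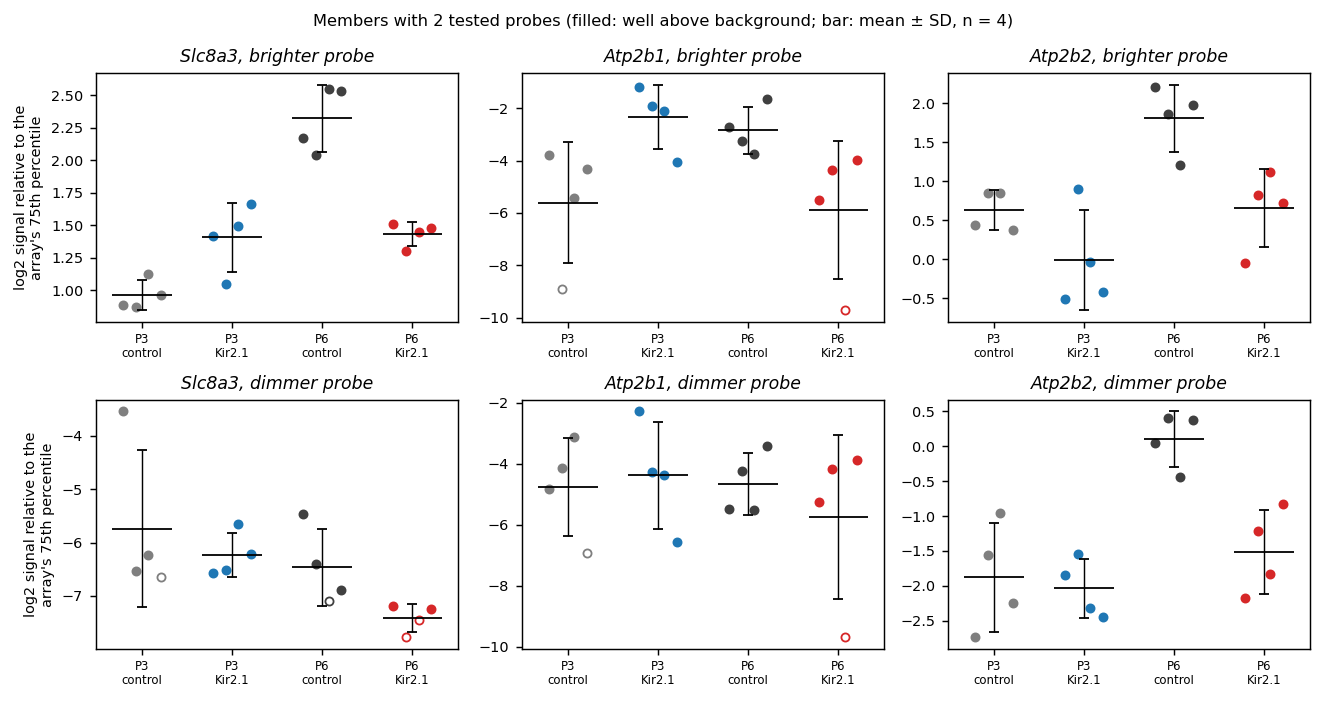
Log2 signal (y axis, relative to the array's 75th percentile) of both tested probes of Slc8a3, Atp2b1 and Atp2b2 in the 4 groups (x axis), 1 point per array, filled where well above background, with mean ± SD of 4 arrays. Both Atp2b2 probes were highest in P6 control cells (r = 0.852), whereas the Slc8a3 probes did not follow each other (r = -0.221).

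Atp2b4 encodes PMCA4, a widely expressed pump. Its brightest probe was above background on all 16 arrays, and its other 2 probes on 1 array each. The group means ran from -3.54 ± 1.04 in P3 control to -5.14 ± 0.41 in P6 Kir2.1 cells (SD, n = 4), with overlap in all 4 comparisons. Kir2.1 differed from control by -0.77 at P3 (SE 0.53, limma adjusted p = 0.86) and by -0.79 at P6. Atp2b3 encodes PMCA3, a pump of excitable cells, and was above background on 5 arrays spread over 3 groups. All 4 P3 Kir2.1 pools read it as not well above background, at a mean of -9.29 against -7.18 in P3 control cells, and the groups overlapped (interval -5.09 to 0.86, adjusted p = 0.847). With normexp correction the difference was -0.43 in place of -2.11. At P6, Atp2b3 differed by -0.06. Between ages Atp2b4 differed by -0.81 in control cells (adjusted p = 0.46) and by -0.82 in Kir2.1 cells (adjusted p = 0.503). Atp2b3 differed by -0.07 in control cells (adjusted p = 0.987), and in Kir2.1 cells its means were -9.29 at P3 and -7.31 at P6 (adjusted p = 0.547).

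At P3, whose arrays were not in the comparison through which the family was taken up, 0 of the 8 tested members were called between Kir2.1 and control cells (limma), and 3 had an unadjusted p under 0.05 (6.54% of all features did). The background was 0.00949% of the 21085 features called. The groups overlapped for all 8, against 6.78% of features whose groups did not overlap. The differences were negative for 6 and positive for 2, Slc8a3 and Atp2b1, with a median of -0.47 against -0.03 for all features. The intervals differed in width. They were widest for Atp2b3 (-5.09 to 0.86), Atp2b1 and Slc24a2, and narrower for Slc8a3 (0.01 to 0.88) and Slc24a3 (-1.10 to 0.63).

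At P6 all 8 differences were negative, with a median of -1.21 against -0.13 for all features. Of the 8, 3 lay past the threshold (Slc24a2, Slc24a3 and Slc8a3), where 1.75% of features did. The groups did not overlap for 5 (also Atp2b1 and Atp2b2), where 8.89% of features did not. Since Slc24a2 in this comparison led to the family, nothing is read from these counts. Of the 8 signs, 7 were the same under each of 14 other settings and with any 1 of the 16 arrays left out, while Atp2b3, at -0.06, ranged from -1.37 to 0.98. The Slc8a3 value passed the threshold with only 1 of the 16 arrays left out in turn, P6 control pool 2, and missed it with each of the others. Fitting only the 8 P6 arrays left 0 members past it. These passes and misses show how the count of 3 moves and are no test of a member.

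**Figure D3:**
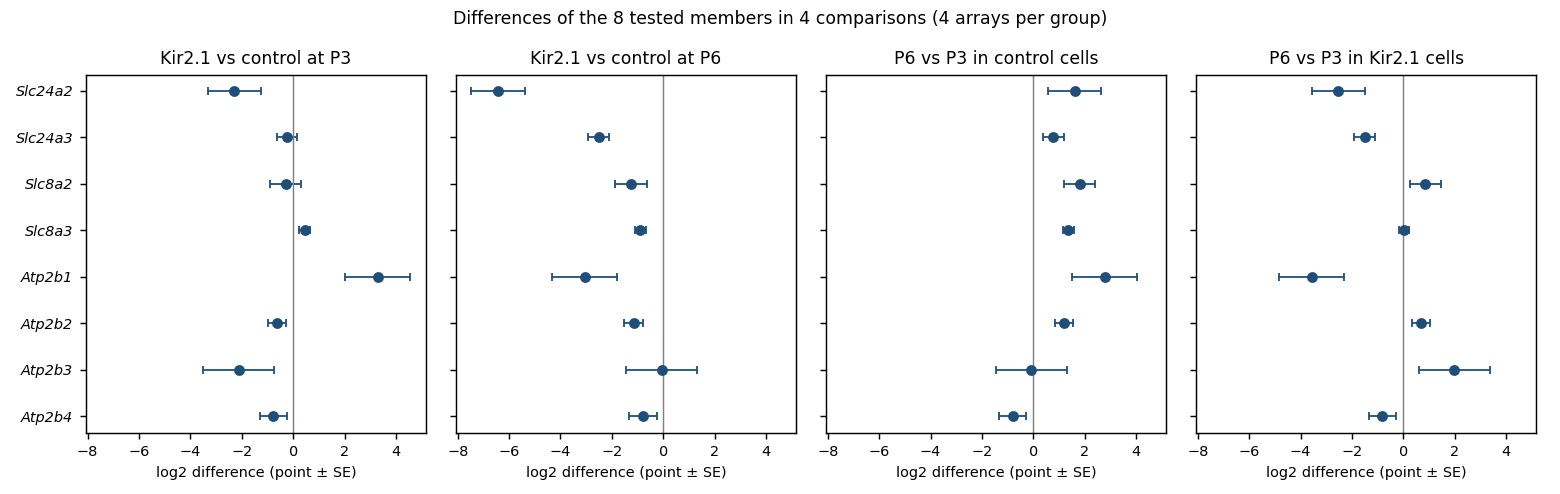
Log2 differences (x axis, point ± SE from limma) of the 8 tested members (y axis) in the 4 comparisons, with 4 arrays per group. At P6 all 8 points lie at or left of 0, from -6.42 for Slc24a2 to -0.06 for Atp2b3, and in control cells 6 of 8 lie right of 0 between ages.

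Between P3 and P6 in control cells, 1 of the 7 members other than Slc24a2 was called, Slc8a3, against 2.59% of features. The P6 pools lay above the P3 pools without overlap for Slc8a2, Slc8a3, Atp2b1 and Atp2b2, where 12.7% of features had groups without overlap in either direction. The median difference of these 7 was 1.18 against -0.07 for all features. In Kir2.1 cells 0 of these 7 were called between ages (limma, 2 at an unadjusted p under 0.05, as were 15.0% of features), against 0.877% of features. Slc24a3 alone did not overlap, and was lower at P6, against 10.5% of features without overlap. The median there was 0.03 against -0.16. These age values share the P6 arrays with the comparison that led to the family, and share slides with age.

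Markers of other cell types moved with these groups. For inhibitory interneurons of the bulb, 10 of 12 listed markers were tested. Their mean log2 level per array ran from -6.40 to -5.19 in P3 control, -5.64 to -4.59 in P3 Kir2.1, -3.48 to -1.14 in P6 control and -6.83 to -4.01 in P6 Kir2.1 cells. Their summed linear level was 2.25 to 7.62 times the 75th percentile in P6 control pools and 0.533 to 2.67 times it in P6 Kir2.1 pools. Gad1 and Gad2, which make GABA and define these neurons, were above background on 4 of 4 P6 control and 3 of 4 P6 Kir2.1 arrays. Of the 10 tested markers, only Dlx2 had a higher mean in P6 Kir2.1 (-3.80) than in P6 control cells (-4.24). Every P6 control pool stood above every other pool in the mean of these markers.

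Other lists moved less cleanly at P6. Astrocyte and radial glia markers (5 of 7 tested) ran from -3.62 to -1.78 in control and from -5.81 to -2.60 in Kir2.1 pools, which overlap. Microglial markers (4 of 6 tested) ran from -6.64 to -2.46 and from -7.05 to -5.41, and the P6 ranges of the oligodendrocyte, vascular and ensheathing cell lists also overlapped. Mitral and tufted cell markers (9 of 10 tested) ran from -2.86 to -1.98 in control and from -2.17 to -0.81 in Kir2.1 pools. At P3 this list did not overlap, at -2.05 to -1.93 in control and -1.58 to -1.20 in Kir2.1 pools. The part of these marker lists in the member differences was not tested. Without the 2 P6 control pools of highest interneuron level, pools 1 and 2, the P6 differences were -5.40 for Slc24a2, -2.53 for Slc24a3 and -1.11 for Slc8a3. Slc24a2 then no longer lay past the threshold. The P6 comparison led to the family, so no pass or miss in it is a test of a member. The control age difference of Slc8a3 was 1.58 in this fit (limma adjusted p = 0.00821). The remaining P6 control pools still had higher interneuron levels than any P6 Kir2.1 pool. This alternative was chosen after the data were seen.

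**Figure D4:**
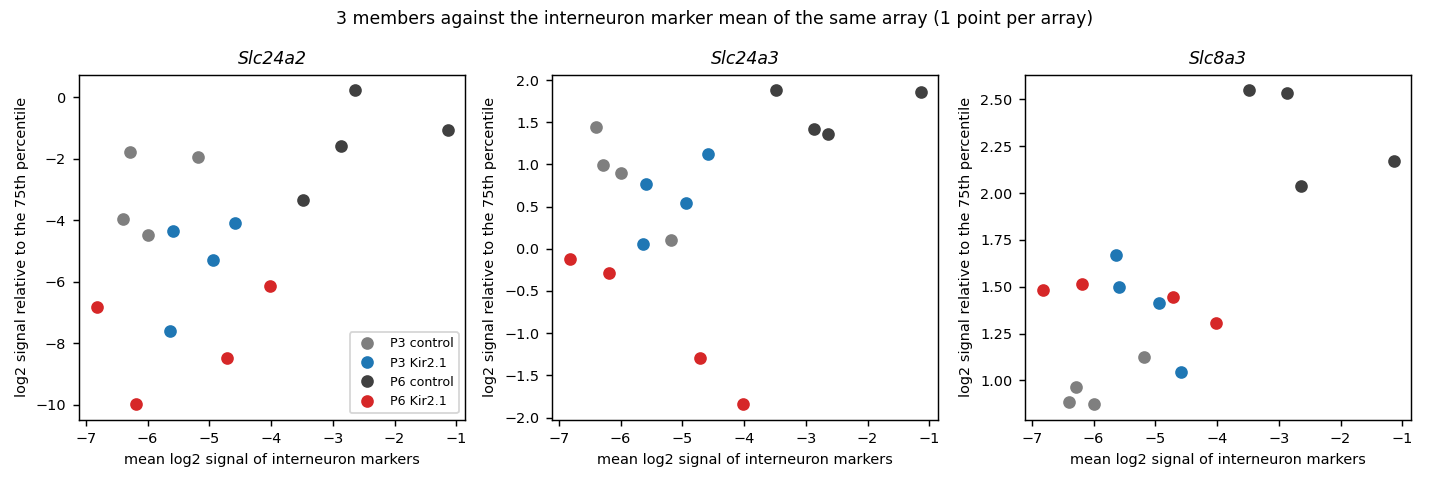
Log2 signal of Slc24a2, Slc24a3 and Slc8a3 (y axis, relative to the array's 75th percentile) against the mean log2 level of 10 interneuron markers of the same array (x axis), 1 point per array, coloured by group. The P6 control pools lie furthest right, from -3.48 to -1.14, and the P6 Kir2.1 pools span -6.83 to -4.01.

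Across the 16 arrays, the named genes whose values followed Slc24a2 most closely were Psd (Pearson r = 0.893), Masp2 (0.864), Igfbp5 (0.863), Dpysl3 (0.855) and Lrrtm1 (0.839), out of 12049 ranked. These correlations include the differences between groups. With each group's mean removed, r with Slc24a2 was 0.848 for Psd, 0.473 for Masp2, 0.235 for Igfbp5, 0.326 for Dpysl3 and 0.532 for Lrrtm1. Psd thus changed least when the group means were removed. Among the members, Slc24a3 was nearest (r = 0.704, place 77), then Atp2b2 (0.605, place 320) and Atp2b1 (0.41), and the other 4 lay between 0.229 and 0.273. The points share pools of few cells and are given as a description.

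Other genes of calcium handling were taken from a list of 39, of which 31 could be tested. The list held other exchangers of the same families (Slc8b1, tested, and Slc24a1 and Slc24a5, not tested) and the auxiliary subunits of the pumps. It also held the intracellular pumps, the release and entry channels, the mitochondrial uniporter, and calcium buffers and sensors. Between Kir2.1 and control cells 0 of 31 were called at P3 and 0 of 31 at P6 (limma), with 5 (16.1%) at an unadjusted p under 0.05 at each age, against 6.54% of all features at P3 and 17.5% at P6. Their median difference was -0.21 at P3 and -0.02 at P6. At P6 the differences were negative for 18 and positive for 13.

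The nearest to the threshold were the partners of the pumps. Bsg and Nptn encode basigin and neuroplastin, membrane glycoproteins that bind the pumps and hold them at the surface. Bsg read -3.79, -2.91, -3.05 and -3.18 in the P3 control pools and -1.97, -1.31, -2.28 and -1.90 in the P3 Kir2.1 pools. It read -2.60, -4.19, -2.39 and -2.35 in the P6 control pools and -1.45, -1.26, -2.08 and -1.36 in the P6 Kir2.1 pools. At both ages every Kir2.1 pool was above every control pool. The differences were 1.37 at P3 (SE 0.40, adjusted p = 0.486) and 1.34 at P6 (SE 0.40, adjusted p = 0.0991), neither past the threshold. Nptn went the other way on its brighter probe, with -0.80 at P3 (SE 0.31, adjusted p = 0.652) and -0.997 at P6 (SE 0.31, adjusted p = 0.12). Its P3 groups did not overlap and its P6 groups did. Stim2, a sensor of calcium in the endoplasmic reticulum, had the next lowest p at P3, with Kir2.1 at 1.64 above control (adjusted p = 0.597).

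Between ages in control cells 0 of the 31 were called (limma, 5 at an unadjusted p under 0.05, or 16.1% against 17.9% of all features). The lowest p belonged to Smdt1, a subunit of the mitochondrial uniporter, at -0.78 (SE 0.23, adjusted p = 0.0929), and Itpr3, a release channel of the endoplasmic reticulum, at -2.94 (SE 1.03, adjusted p = 0.15). In Kir2.1 cells 2 of the 31 were called, both lower at P6, against 0.877% of all features called in either direction. At an unadjusted p under 0.05 (limma) there were 5, or 16.1% against 15.0% of all features. Micu2, a regulatory subunit of the uniporter, read 0.25, -0.52, -0.86 and -0.31 in the P3 pools and -2.78, -2.07, -5.28 and -3.42 in the P6 pools. It fell by 3.02 (SE 0.57, limma adjusted p = 0.0306). Stim2 read -6.37, -7.07, -6.81 and -5.42 at P3, above background in 3 pools, and -9.62, -9.74, -9.53 and -9.04 at P6, above background in 0 pools. It was at least 4.86-fold lower at P6 (adjusted p = 0.0268), with means of -6.42 and -9.48. This bound sets the P3 mean against the higher, on each P6 array, of the probe's own signal and the lowest signal well above background, and it holds for the scanner's own background correction: with normexp the difference was -0.63 (adjusted p = 0.255).

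Neither Micu2 nor Stim2 overlapped between ages in Kir2.1 cells, but each call ended in 6 of the 16 fits that left out 1 array, with adjusted p up to 0.0766 and 0.0734. For Micu2 these were P3 Kir2.1 pools 1 to 4 and P6 Kir2.1 pools 1 and 4, and for Stim2 they were pools 1, 2 and 4 at P3 and pools 1 to 3 at P6, again of Kir2.1 cells. Fitting only these 8 arrays ended both calls (adjusted p = 0.165 and 0.0611), the replicate block ended that of Micu2 (0.0581), and quantile normalization ended that of Stim2 (0.0861). For both, the test of whether the age difference itself differed between Kir2.1 and control cells did not pass (interaction, limma adjusted p = 0.525 for Micu2 and 0.333 for Stim2), and 0 of the 31 genes passed it, with 2 at an unadjusted p under 0.05.

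**Figure D5:**
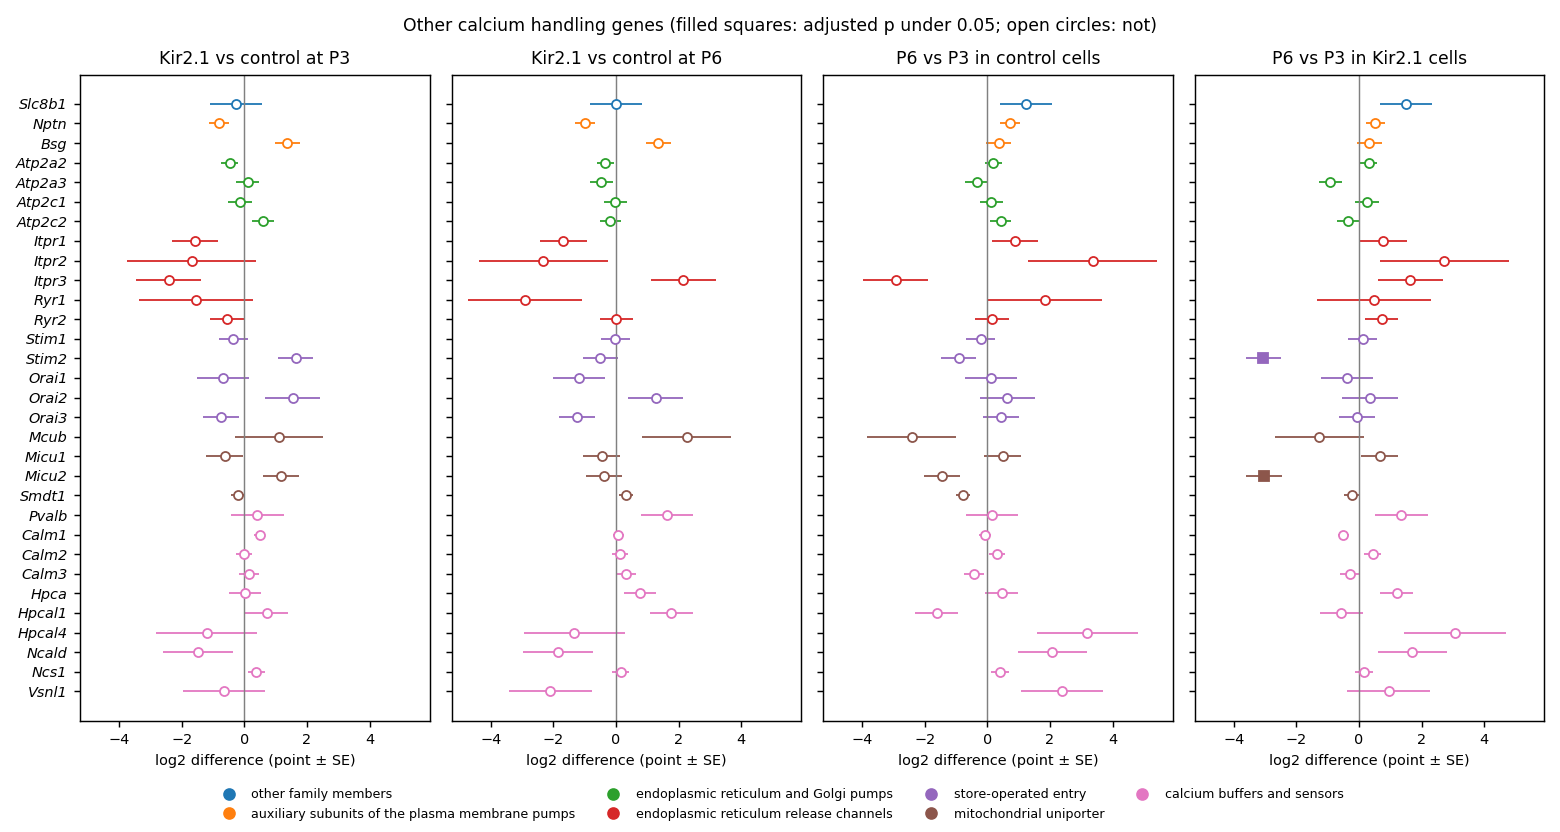
Log2 differences (x axis, point ± SE from limma) of 31 other calcium handling genes (y axis, coloured by role) in the 4 comparisons, with 4 arrays per group. Filled squares mark an adjusted p under 0.05, which only Stim2 and Micu2 reached, both between ages in Kir2.1 cells.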

How the data were processed

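Pools of 10 mitral cells were hybridised to 1-colour Agilent arrays and scanned with Agilent Feature Extraction 10.7.3.1, per the submitters' processing notes and the file headers. The deposited intensity is the scanner's background-subtracted signal, per the file headers. The deposited value table held each signal as a ratio to the array's 75th percentile over all gene spots, as found by setting it against the scanner values (the median quotient was 1.00), and served as an alternative. Grids were built on mm9, per the file headers.

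Control spots were left out, as were 83 of 55681 probes that were flagged on an array. Spots of a probe were averaged, scaled to each array's 75th percentile over 12111 probes, and put on the log2 scale. Accessions of 28116 probes were looked up in RefSeq (GRCm38.p6), and 26546 were named. Tests were run over all 16 arrays with a mean for each group, in limma 3.58.1 (R 4.3.3), by lmFit and eBayes with Benjamini-Hochberg adjustment over 21085 features, 12050 of them named genes. The fit had 12 residual degrees of freedom and was tested on simulated data. No 2 arrays held the same data: at most 0.0018% of signals were identical.

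The members and all gene lists were chosen with earlier results of these data known. Named genes are all members, the other calcium handling genes that were called or otherwise had the 2 lowest p in a comparison, and the 5 genes most like Slc24a2. The normexp alternative used the median spot signal, since the files used here hold no mean signal. The other alternatives changed the scaling, the filter on dim probes, the probe rule, the variance model, the arrays in the fit, a floor or the replicate block. Precision is limited by the 4 arrays per group. Sequences before transcript starts came from a RefSeq table (GRCm38.p6). Probe and protein sequences were not used here.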

Additional observations from a re-analysis of the deposited data

Results flagged for a closer look

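Among 18 member probes in 4 groups, which make 72 sets of 4 pools, 3 sets held 1 pool far from the other 3, by the gap to its nearest neighbour as a share of the group's range. Chance marks about 1 in 20 groups in this way. All 3 were single high pools on dim probes. For Slc8a1 it was P6 control pool 4, at -2.21 against -8.77 for the next (share 0.99), the only array on which that probe was above background. For the dimmer Slc8a3 probe it was P3 control pool 1, at -3.54 against -6.24 (share 0.87). For the third Slc24a2 probe it was P3 Kir2.1 pool 3, at -3.50 against -9.52 (share 0.955), the only array on which it was above background, while the first Slc24a2 probe read -4.33 there, inside the range of its group.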

How the results depend on the processing

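Of the 32 member values (8 genes in 4 comparisons), 27 kept their sign under each of up to 14 other settings and with any of the 16 arrays left out. Fitting only the arrays of the 2 groups compared, which leaves fewer arrays to estimate the spread, brought the members past the threshold at P6 from 3 to 0 and those called between ages in control cells from 1 to 0. Without the 2 P6 control pools of highest interneuron level, Slc24a2 was not past the threshold at P6. The P6 comparison led to the family, so these P6 outcomes are descriptions and no test of the members. A few values reversed, and the cause was not tested. For Slc8a2 at P3, leaving out single arrays gave -0.66 to 0.18. For Slc8a3 at P3 the mean of both probes gave -0.026. For Atp2b3 between ages in control cells, leaving out single arrays gave -1.12 to 0.85, array weights gave 0.15 and leaving out the 2 pools of highest interneuron level gave 0.45. For Slc8a3 between ages in Kir2.1 cells, normexp correction gave -0.067, the mean of both probes -0.57 and leaving out single arrays -0.090 to 0.12. Scaling over all gene probes moved the median of all features by 0.21 at P6 and by 0.17 between ages in Kir2.1 cells, and moved the share of calls that were higher from 49.2% to 71.5% and from 45.9% to 64.3%. The number of features called at P6 was 370, against 20 in the fit of 2 groups and 707 with normexp correction. At P3 it was 2, against 0 to 25 over the alternatives.

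The labels give all groups the same replicate numbers. Arrays of the same number did not deviate together: the 24 correlations of their deviations ran from -0.03 to 0.03, and 4 of 16 arrays were closest to their own number. With the replicate number as a block, 0 members were called at P3, 1 between ages in control cells and 0 between ages in Kir2.1 cells. At P6, 2 members were past the threshold, given as a description and not a test. Of the 2 other calcium handling genes called between ages in Kir2.1 cells, the block left Stim2 called (adjusted p = 0.0374) and ended the call of Micu2 (adjusted p = 0.0581), and features called at P6 fell from 370 to 183. Low signals limit Slc24a2 in P6 Kir2.1 cells, Atp2b3, Slc24a4 and Slc8a1, which lay at or near background on many arrays.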
